A study of Mus musculus with 16 samples.

Results

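Cell cycle and proliferation genes were described in the injured pancreas of 16 mice. The set holds 40 genes taken from the deposited table by symbol, in 3 groups: 14 genes of S phase, 23 genes of G2 phase and mitosis, here G2/M, and the 3 D-type cyclins. All 40 were found among the 15156 genes of the deposited table, and all 40 passed the filter on low values (10 normalized counts or more in 4 or more libraries) that left 14220 genes for testing. Total RNA came from whole pancreas, with 4 mice, independent biological replicates per the labels, in each of 4 genotype groups. WT mice were wild type. DC mice were Daxxfl/flPdx1-CreTg, MC mice were Men1fl/flPdx1-CreTg and DMC mice were Daxxfl/flMen1fl/flPdx1-CreTg. Every mouse, WT included, received caerulein, a peptide that drives acinar cells to secrete to excess and so injures the pancreas, at 50 ug/kg in 4 hourly intraperitoneal injections on 3 occasions a week for 3 weeks. Pancreas was collected 5 days after the last injection, from mice 6 to 10 weeks old. Pdx1-Cre acts in the epithelial lineages of the pancreas, so blood cells, fibroblasts and vessels keep intact alleles, and the label of the WT group names no Cre transgene.

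A cell that commits to division passes from G1 into S phase, where it copies its DNA, and through G2 into mitosis. D-type cyclins bind the kinases Cdk4 and Cdk6 and start the release of E2F transcription factors from the retinoblastoma proteins, and E2F then switches on the S phase genes. G2/M genes are switched on later, largely through a promoter element called the cell cycle genes homology region (CHR) and nearby CCAAT boxes. Adult acinar cells divide rarely, and division rises during repair after injury and among dividing lymphocytes, such as those of germinal centres. In bulk tissue, fewer cells of a dividing type and less RNA per cell cannot be told apart.

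Promoters from both phase groups are shown because they carry different elements. RefSeq promoters on GRCm38.p6, each 250 bases before to 50 bases after the start, were matched for 31 of 40 genes by symbol. Sequences are 5′ to 3′ on the strand of the gene, and capitals mark the searched motifs: E2F (TTTCGCGC, TTTGGCGC, TTTCCCGC or TTTGCCGC), CHR (TTTGAA) and CCAAT, each on both strands.
Mcm5, chr8:75109259-75109558, plus strand: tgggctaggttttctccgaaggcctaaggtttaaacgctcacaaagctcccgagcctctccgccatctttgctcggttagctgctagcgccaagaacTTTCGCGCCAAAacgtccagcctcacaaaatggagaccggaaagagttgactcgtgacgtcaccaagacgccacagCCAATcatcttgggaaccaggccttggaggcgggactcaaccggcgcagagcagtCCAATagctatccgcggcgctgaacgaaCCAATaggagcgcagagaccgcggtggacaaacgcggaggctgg
Mcm6, chr1:128359656-128359955, minus strand: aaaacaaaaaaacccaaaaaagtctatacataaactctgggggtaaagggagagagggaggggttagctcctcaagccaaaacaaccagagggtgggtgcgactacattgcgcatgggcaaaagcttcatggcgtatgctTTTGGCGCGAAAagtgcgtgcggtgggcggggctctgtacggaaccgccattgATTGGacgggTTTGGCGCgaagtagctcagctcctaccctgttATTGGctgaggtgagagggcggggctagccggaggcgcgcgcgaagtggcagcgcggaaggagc
Mki67, chr7:135716330-135716629, minus strand: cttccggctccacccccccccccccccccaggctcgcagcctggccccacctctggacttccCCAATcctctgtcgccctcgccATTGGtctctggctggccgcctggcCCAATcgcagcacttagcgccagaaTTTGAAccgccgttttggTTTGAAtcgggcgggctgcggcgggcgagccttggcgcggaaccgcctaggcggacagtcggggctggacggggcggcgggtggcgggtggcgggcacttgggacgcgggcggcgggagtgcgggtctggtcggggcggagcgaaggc
Cdk1, chr10:69352863-69353162, minus strand: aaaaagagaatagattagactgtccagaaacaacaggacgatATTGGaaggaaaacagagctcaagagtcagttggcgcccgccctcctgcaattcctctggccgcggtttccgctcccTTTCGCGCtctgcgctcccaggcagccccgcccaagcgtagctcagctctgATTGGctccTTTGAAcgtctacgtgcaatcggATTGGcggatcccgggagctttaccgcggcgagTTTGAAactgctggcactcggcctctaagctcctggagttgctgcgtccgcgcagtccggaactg
In Mcm5 the run of capitals at -153 from the start holds 2 overlapping E2F matches on opposite strands, and in Mcm6 the run at -110 does so too, with a further match at -47. Mki67 has CHR matches at -116 and -98, and Cdk1 has them at -71 and -15 with an E2F match at -131. An E2F match was present in 5 of 12 S phase genes with a promoter and in 1 of 18 G2/M genes, against 2.6% of the 27025 genes of the RefSeq table. A CHR match was present in 13 of 18 G2/M genes and 1 of 12 S phase genes, against 20.2%. CCAAT was present in 16 of 18 G2/M genes and 8 of 12 S phase genes, against 41.1%, and both CHR and CCAAT in 13 of 18 and 1 of 12, against 8.97%. A match is a description of the letters and not a site shown to be bound.

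Libraries held 13481063 to 23728309 recovered reads, and a member had between 25 and 4579 reads in a library, so counting error was at most 20% of a value. Men1 checked the labels: its normalized counts lay between 331 and 542 in WT and DC, at 116 to 147 in MC and at 157 to 178 in DMC. Its log2 difference from WT was -1.47 in MC (limma adjusted p = 6.16e-05), and DMC differed from WT by -1.12 (limma adjusted p = 0.000713). Every DMC library was above every MC library for Men1, as in 2.14% of all genes tested, without passing the test (0.35, limma adjusted p = 0.748). Daxx did not pass the test against WT, where it spanned 196 to 346, in DC (212 to 245, limma adjusted p = 0.683) or DMC (160 to 225, limma adjusted p = 0.193). The acinar enzyme gene Cpa1 was at 311100 to 1088000 in every library, as the label of pancreas implies. WT libraries 2 and 3 stood apart by their lymphoid transcripts. The mean log2 level of 20 B, T and NK cell markers was 7.87 and 8.71 there and 3.65 and 5.77 in WT libraries 1 and 4. The same libraries differed in acinar markers, with a mean log2 level of 16.8 in both WT libraries 2 and 3 and of 17.6 and 17.4 in WT libraries 1 and 4. The labels name no sex, and the Y-linked gene Ddx3y was at 843 to 1253 in 7 libraries (WT 1 and 2, DC 1, MC 1 and 2, DMC 1 and 3) and at 0 to 6.09 in the other 9.

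S phase genes had their highest group mean in DMC, with WT next and DC and MC lowest, and WT and DMC overlapped over most of their ranges. Their level, the mean log2 of normalized count plus 1 over the 14 genes, was 7.78, 8.42, 8.16 and 7.63 in WT libraries 1 to 4. It was 7.99, 7.60, 7.43 and 7.65 in DC, and 7.70, 7.47, 7.80 and 7.72 in MC. In DMC it was 8.04, 7.66, 8.35 and 8.54. DMC library 4 was thus the highest of all 16, followed by WT library 2, and DMC library 2 lay within the range of DC and MC.

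**Figure D1:**
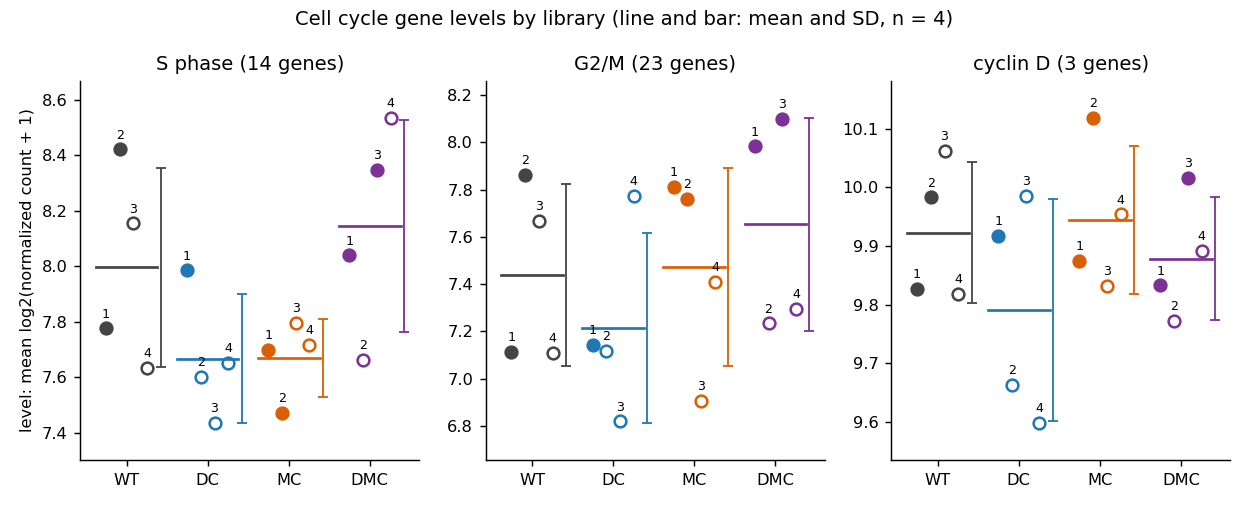
Mean log2(normalized count + 1) of the S phase, G2/M and cyclin D genes (vertical axes) in the 16 libraries by genotype group (horizontal axes). Each point is 1 mouse, numbered by replicate, bars are group means ± SD (n = 4), filled points are the 7 libraries with high Y-linked expression and open points the 9 others; DMC library 4 is highest for S phase genes at 8.54 but stands at 7.30 for G2/M genes.

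Mcm2 to Mcm7 encode the 6 subunits of the helicase that unwinds DNA at replication forks. Mcm6, the S phase gene with the highest mean count (per kb of exon, Pcna was higher, at 202 against 125 normalized counts), had 594, 1088, 643 and 448 normalized counts in WT, 844, 421, 432 and 381 in DC, 342, 211, 535 and 400 in MC, and 689, 562, 708 and 1061 in DMC. All 4 DMC libraries were above all 4 MC libraries, while WT overlapped both groups. It also had the widest range of the S phase genes, 5.15-fold from the lowest to the highest library. Mcm5 had 320, 572, 485 and 225 in WT, 381, 216, 219 and 228 in DC, 234, 229, 259 and 274 in MC, and 398, 273, 537 and 564 in DMC. DC library 1 stood above the other DC libraries, and DMC library 2 fell within the MC range. Mcm2 spanned 309 to 596 in WT and 255 to 406 in DC, with MC at 335 to 430 and DMC at 269 to 771, overlapping in every pair of groups. Mcm3, Mcm4 and Mcm7 ranged from 161 to 405, 203 to 538 and 328 to 656 over the 16 libraries.

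Pcna, the sliding clamp that holds DNA polymerases on the template, had 416, 656, 650 and 382 normalized counts in WT, 515, 418, 328 and 485 in DC, 435, 286, 418 and 444 in MC, and 557, 505, 584 and 692 in DMC. DMC lay wholly above MC, the lowest MC library being number 2. Rrm1 and Rrm2 encode the subunits of ribonucleotide reductase, which makes deoxynucleotides. Rrm1 had 389, 602, 592 and 373 in WT, 516, 364, 325 and 446 in DC, 400, 367, 402 and 416 in MC, and 527, 419, 570 and 594 in DMC. MC was the tightest group for Rrm1 and again lay below every DMC library. Rrm2 ranged from 200 to 457 and Tyms, which makes thymidylate, from 161 to 348. Cdc6, which loads the helicase at origins, ranged from 54.8 to 241. Ccne1 and Ccne2, the E-type cyclins that start S phase, ranged from 34.3 to 80.4 and from 41.3 to 152. E2f1, the transcription factor upstream of these genes, had 101, 156, 75.1 and 76.9 in WT, 81.4, 82.1, 91.2 and 78.1 in DC, 107, 88.9, 80.9 and 86.3 in MC, and 128, 103, 137 and 136 in DMC. Every DMC library was above every DC library for E2f1.

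G2/M genes spread widely among mice of 1 genotype. Their level was 7.12, 7.86, 7.67 and 7.11 in WT, 7.14, 7.12, 6.82 and 7.77 in DC, 7.81, 7.76, 6.91 and 7.41 in MC, and 7.98, 7.23, 8.10 and 7.30 in DMC. The 4 groups overlapped, with means of 7.21 in DC to 7.65 in DMC and SDs within groups of 0.39 to 0.45. Within a group, the median SD of log2 values was 0.45 over the G2/M genes, 0.37 over the S phase genes and 0.26 over the D-type cyclins. It was 0.24 over the 11194 tested genes within the members' range of mean.

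Mki67, the source of the Ki-67 proliferation marker, had 1630, 2998, 2272 and 1766 normalized counts in WT, 1590, 1694, 1521 and 2428 in DC, 3003, 2538, 1154 and 1771 in MC, and 2963, 1856, 2931 and 1669 in DMC. MC contained both the highest and the lowest of the 16 values. Top2a, the topoisomerase that untangles sister chromatids, had 727, 1406, 1434 and 843 in WT, 914, 834, 743 and 1234 in DC, 1239, 1099, 742 and 991 in MC, and 1415, 987, 1447 and 981 in DMC. WT library 2, MC library 1 and DMC libraries 1 and 3, the 4 highest for Mki67, were among the 5 highest for Top2a, and the groups overlapped. Cdk1, the kinase that drives entry into mitosis, spanned 154 to 276 in WT and 145 to 264 in DC, with MC at 144 to 238 and DMC at 154 to 310.

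Of its cyclin partners, Ccna2 ranged from 164 to 576 and Ccnb2 from 44.4 to 150. Ccnb1 ranged from 37.6 in DC library 3 to 240 in DMC library 3, a 6.39-fold range and the widest of the 40 genes. Foxm1, a transcription factor of the G2/M genes, ranged from 60.1 to 194. Among the kinases of mitosis and its checkpoint, Aurka ranged from 39.9 to 152, Aurkb from 53.0 to 110, Plk1 from 49.5 to 148 and Bub1 from 44.2 to 118. Bub1b, the checkpoint protein that restrains the anaphase-promoting complex, had 131, 207, 210 and 108 in WT, 150, 105, 93.4 and 135 in DC, 169, 152, 133 and 155 in MC, and 245, 152, 273 and 168 in DMC. Every DMC library was above every DC library for Bub1b, by a narrow margin between DMC library 2 and DC library 1. Cdc20 and Ube2c, which work with that complex at anaphase, ranged from 103 to 376 and from 57.6 to 210. The chromosomal passenger subunits Birc5 and Cdca8 ranged from 80.2 to 217 and from 32.3 to 94.4. The kinesins Kif11 and Kif20a ranged from 141 to 352 and from 82.4 to 240, the centromere proteins Cenpe and Cenpf from 124 to 363 and from 213 to 638, and the spindle proteins Tpx2, Nusap1 and Prc1 from 135 to 389, 78.6 to 184 and 196 to 454.

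**Figure D2:**
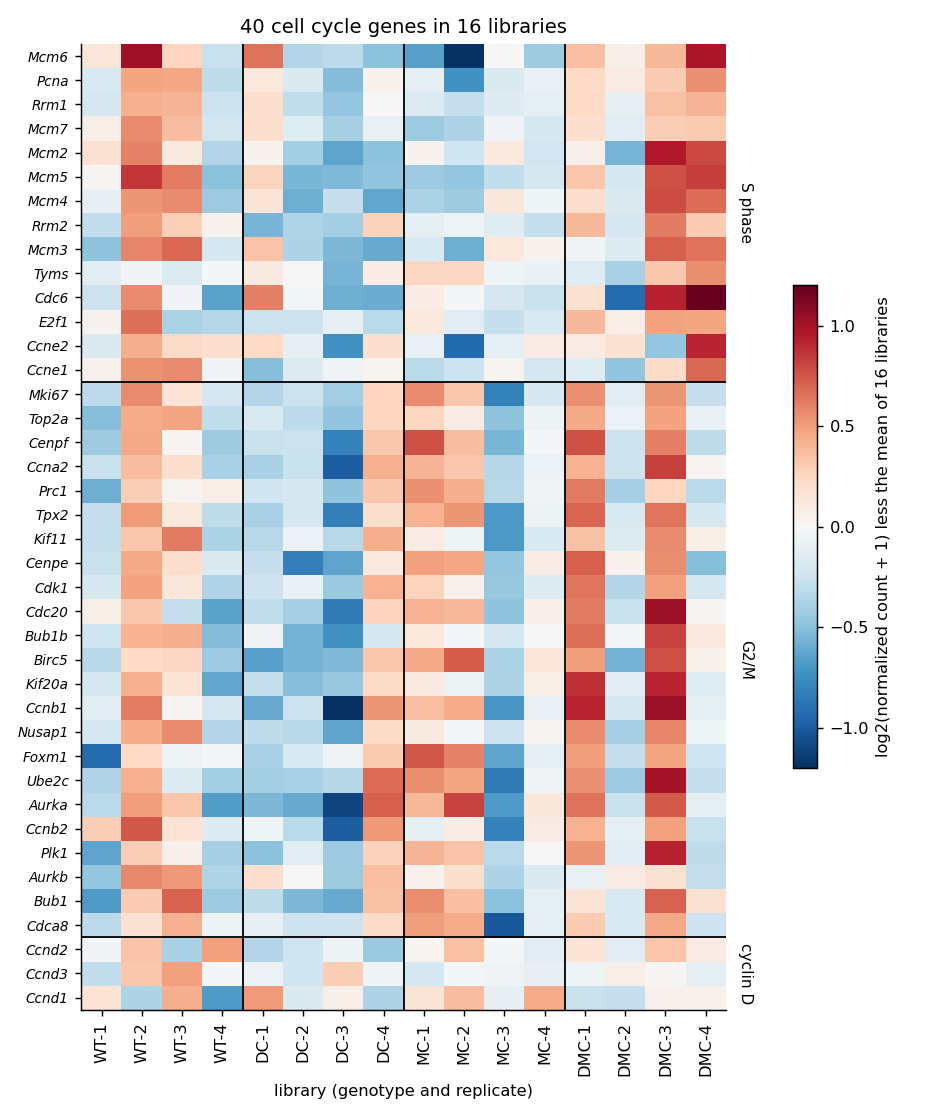
Each row is 1 of the 40 genes and each column 1 of the 16 libraries by group; colour is the difference in log2(normalized count + 1) from the mean of that gene over all libraries, with colours clipped at 1.2 on either side. G2/M genes move together within a library, as in DC library 4 and MC library 3, and S phase genes do not always follow them, as in DMC library 4.

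In DC and in MC, 1 library was at an end of its group over most G2/M genes at once. In WT the highest G2/M values divided 16 and 7 between libraries 2 and 3, and in DMC 16 and 7 between libraries 3 and 1. The libraries named below stood out in level over the same genes that are counted. Their counts restate that level, are not a test and are not counts of independent observations. DC library 4 was the highest DC library in 22 of 23 G2/M genes, against 27.8% of all genes tested, but in 2 of 14 S phase genes. MC library 3 was the lowest MC library in 23 of 23 G2/M genes, against 24.4% of all genes tested, but in 1 of 14 S phase genes. DC library 1 was the highest DC library in 11 of 14 S phase genes, against 34.4% of all genes tested, and in 1 of 23 G2/M genes. DMC library 4 was the highest DMC library in 9 of 14 S phase genes and in 0 of 23 G2/M genes, against 24.6% of all genes tested. DMC library 2 was the lowest DMC library in 13 of 14 S phase genes, against 27% of all genes tested, and in 13 of 23 G2/M genes.

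The D-type cyclins link growth signals to the start of the cycle. Their median SD of log2 values within a genotype was the smallest of the 3 phase groups, at 0.26. Ccnd1 alone stood at 0.35, above S phase genes such as Rrm1 (0.27) and Mcm7 (0.25). Ccnd2 was the most abundant per length, at 255 to 489 normalized counts per kb of exon (median 340), and was above both others in all 16 libraries. Ccnd1 was at 55.0 to 126 per kb (median 90.7) and Ccnd3 at 57.6 to 99.4 (median 68.7), and Ccnd3 exceeded Ccnd1 in 4 of 16 libraries. In normalized counts, Ccnd2 had 3186, 4140, 2493 and 4598 in WT, 2566, 2761, 3124 and 2403 in DC, 3333, 4159, 3217 and 2981 in MC, and 3661, 2981, 4117 and 3491 in DMC. DC held the lowest group mean, with library 4 below the WT range and the other DC libraries within it. Ccnd1 had 463, 320, 561 and 259 in WT, 593, 367, 436 and 320 in DC, 461, 537, 388 and 563 in MC, and 343, 341, 429 and 426 in DMC. Ccnd3 had 506, 779, 872 and 615 in WT, 593, 525, 761 and 602 in DC, 537, 614, 603 and 579 in MC, and 600, 654, 628 and 575 in DMC. WT libraries 2 and 3 and DC library 3 were the 3 highest for Ccnd3, and the groups overlapped for all 3 cyclins.

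**Figure D3:**
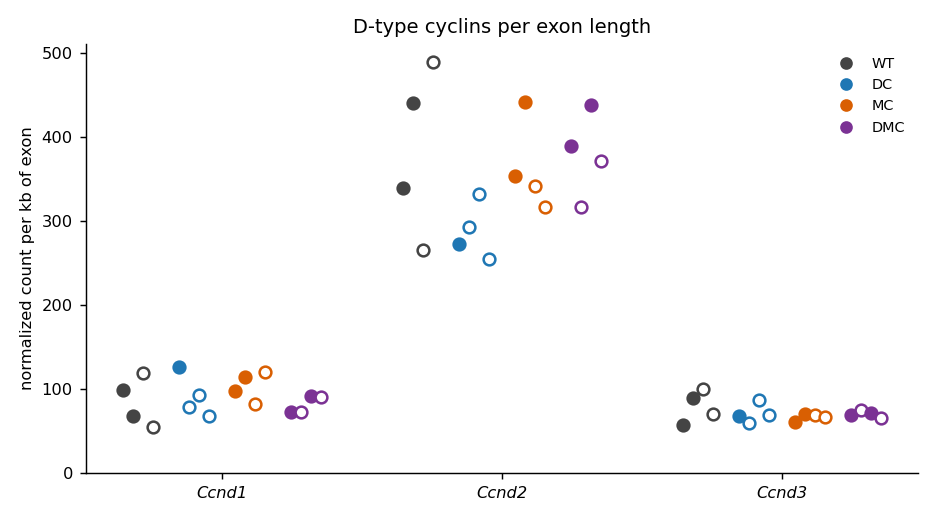
Normalized counts per kb of exon (vertical axis) of Ccnd1, Ccnd2 and Ccnd3 (horizontal axis). Each point is 1 mouse, coloured by genotype group, filled for the 7 libraries with high Y-linked expression and open for the others; Ccnd2 is at 255 or more in every library, and Ccnd1 and Ccnd3 are at 126 or less.

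No cell cycle gene passed the test between any 2 genotypes. With limma over all 14220 genes and a threshold of 0.05 on the adjusted p, 0 of 40 genes were called in DC against WT (0.0211% of all genes tested were called), MC against WT (0.781%), DMC against WT (0.788%), DMC against MC (0.00703%), DMC against DC (0.534%) and MC against DC (1.37%). With edgeR and with DESeq2 on recovered reads, 0 of 40 were called in each as well. In that order edgeR called 3, 111, 102, 1, 71 and 179 of the 14220 genes and DESeq2 281, 391, 331, 56, 345 and 500. At an unadjusted limma p under 0.05, 1, 3, 0, 7, 11 and 0 of the 40 genes passed in that order, against 11.7%, 12.7%, 12.5%, 5.57%, 13.2% and 13.7% of all genes tested. The corresponding counts were 2, 3, 0, 8, 10 and 0 with edgeR and 2, 3, 0, 8, 12 and 0 with DESeq2. The share of all genes tested at that threshold was not computed for either tool, so these counts have no background. The 3 comparisons with WT share its libraries, and comparisons that share DC, MC or DMC share those. Genes of a phase group move together within a library, so a count of genes, here and below, is not a count of independent observations.

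DC against WT compared floxed Daxx, with Pdx1-Cre, to wild type with no Cre named, so the alleles and the transgene cannot be told apart. S phase genes were at a lower mean in DC for 14 of 14 genes, with a median log2 difference of -0.35, and G2/M genes for 21 of 23, with a median of -0.21. The median over all genes tested was -0.015, and 47.3% of them were positive. The smallest p belonged to Ccnd2 (log2 difference -0.38 ± 0.17, SE, limma adjusted p = 0.411), Mcm5 (-0.57 ± 0.28, limma adjusted p = 0.457) and Rrm2 (-0.40 ± 0.21, limma adjusted p = 0.487). Lymphoid markers were lower in DC for 20 of 20 genes, with a median of -1.27 and summed counts of 474 to 2760 in DC and 299 to 10330 in WT, with 0 of 20 at an unadjusted p under 0.05. Germinal centre markers were lower for 8 of 9 (median -1.08, 3 at an unadjusted p under 0.05, against 11.7% of all genes tested). Fibroblast markers were higher in DC for 10 of 10 genes (median 0.75, 8 at an unadjusted p under 0.05, mean log2 level 10.03 to 11.18 in DC and 9.54 to 9.95 in WT). Neutrophil markers were higher for 6 of 6 tested, of 9 listed (median 1.02). Their mean log2 level ran from 3.49 in DC library 3 to 6.87 in DC library 2, and from 2.74 to 3.61 in WT. Macrophage markers were higher for 10 of 10 (median 0.36) and acinar markers lower for 13 of 13 (median -0.59). Counts of markers, here and below, are of the tested genes of each list. The part of these cell type markers in the differences was not tested beyond a fit with the lymphoid level as a covariate, described at the end. The same holds for the comparisons below. Without WT libraries 2 and 3 the S phase median was -0.07 and the G2/M median turned to 0.11, with 0 of 40 genes called.

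MC against WT likewise compared floxed Men1, with Pdx1-Cre, to wild type with no Cre named. S phase genes were at a lower mean in MC for 13 of 14 genes, with a median of -0.31, whereas G2/M genes divided 12 to 11 with a median of 0.03, and all genes tested had a median of -0.017. The 3 genes at an unadjusted p under 0.05 were helicase subunits: Mcm6 (-0.90 ± 0.32, SE, limma adjusted p = 0.243), Mcm7 (-0.46 ± 0.17, limma adjusted p = 0.274) and Mcm5 (-0.60 ± 0.28, limma adjusted p = 0.39). Lymphoid markers were lower in MC for 20 of 20 genes, with a median of -1.99 and summed counts of 368 to 2180 in MC. Germinal centre markers were lower for 7 of 9 (median -0.62, 4 at an unadjusted p under 0.05, against 12.7% of all genes tested). Duct and macrophage markers were higher for 10 of 10 each (medians 0.34 and 0.46), fibroblast markers for 9 of 10 (median 0.39), neutrophil markers for 5 of 6 (median 1.01) and islet endocrine markers for 14 of 16 (median 0.98), and acinar markers were lower for 11 of 13 (median -0.35). Their part was not tested. Without WT libraries 2 and 3 the S phase median was -0.01 and the G2/M median 0.35, with 0 of 40 genes called. The G2/M median was below 0 with quantile scaling, with library quality weights and when any of 4 single libraries (WT 1, WT 4, MC 1 or MC 2) was left out.

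DMC against WT compared both floxed genes, again with Pdx1-Cre, to wild type. S phase genes were at a higher mean in DMC for 12 of 14 genes (median 0.17) and G2/M genes for 21 of 23 (median 0.24), against a median of -0.018 and 47.3% positive over all genes tested. The smallest p belonged to E2f1 (0.36 ± 0.20, SE, limma adjusted p = 0.485), Cdc20 (0.49 ± 0.31, limma adjusted p = 0.535) and Kif20a (0.44 ± 0.28, limma adjusted p = 0.544). Lymphoid markers were lower in DMC for 20 of 20 genes (median -1.07), germinal centre markers for 7 of 9 (median -0.57) and acinar markers for 13 of 13 (median -0.49). Islet endocrine markers were higher for 14 of 16 (median 1.44, 9 at an unadjusted p under 0.05, mean log2 level 8.78 to 10.88 in DMC and 7.39 to 9.01 in WT), and macrophage and fibroblast markers for 10 of 10 each (medians 0.69 and 0.39). Their part was not tested. Without WT libraries 2 and 3 the medians were 0.48 and 0.57, with 0 of 40 genes called, and with library quality weights the S phase median was -0.08.

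DMC against MC asks what the Daxx alleles add where Men1 is floxed, and it uses no WT library. Men1 itself was at 157 to 178 normalized counts in DMC and 116 to 147 in MC, and its part was not tested. S phase genes were at a higher mean in DMC for 13 of 14 genes, with a median of 0.44, and G2/M genes for 20 of 23, with a median of 0.18, against 0.006 over all genes tested. All 7 genes at an unadjusted p under 0.05 were S phase genes, led by Mcm6 (1.06 ± 0.32, SE, limma adjusted p = 0.488), Pcna (0.57 ± 0.20, limma adjusted p = 0.7) and Mcm5 (0.78 ± 0.28, limma adjusted p = 0.708), and the others were Mcm7, E2f1, Rrm1 and Mcm4. The 95% interval of the Mcm6 difference was 0.38 to 1.73. All 4 DMC libraries were above all 4 MC libraries in 3 genes (Pcna, Mcm6 and Rrm1), against 2.14% of all genes tested. The S phase median stayed between 0.36 and 0.59 over 31 alternative analyses, while the G2/M median turned to -0.04 without MC library 3. Alternatives that leave out only WT or DC libraries cannot move either median. Germinal centre markers were higher in DMC for 7 of 9 genes (median 0.28). Lymphoid markers were higher in DMC for 18 of 20 genes (median 0.75) with summed counts of 335 to 3736 in DMC, and islet endocrine markers for 15 of 16 (median 0.44), while neutrophil markers were lower for 5 of 6 (median -0.83) and duct markers for 7 of 10 (median -0.41). Their part was not tested.

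DMC against DC asks what the Men1 alleles add where Daxx is floxed. S phase genes were at a higher mean in DMC for 14 of 14 genes, with a median of 0.52, and G2/M genes for 22 of 23, with a median of 0.45, against 0.003 over all genes tested and 50.6% positive. The smallest p belonged to Bub1b (0.77 ± 0.24, SE, limma adjusted p = 0.178), E2f1 (0.59 ± 0.20, limma adjusted p = 0.231) and Mcm4 (0.70 ± 0.26, limma adjusted p = 0.261). Of the 11 genes at an unadjusted p under 0.05, 6 were S phase genes, 4 were G2/M genes and 1 was Ccnd2 (0.39 ± 0.17, limma adjusted p = 0.338). All 4 DMC libraries were above all 4 DC libraries in 2 genes (E2f1 and Bub1b), against 3.55% of all genes tested. Both medians kept their sign in all 31 alternatives, the S phase median between 0.38 and 0.69 and the G2/M median between 0.30 and 0.61. Alternatives that leave out only WT or MC libraries cannot move these medians. With library quality weights 8 genes were called (Bub1b, Cenpe, E2f1, Kif20a, Mcm4, Mcm5, Rrm1 and Rrm2), but 11.6% of all genes tested were called there too. Germinal centre markers were higher in DMC for 8 of 9 genes (median 0.51). Islet endocrine markers were higher in DMC for 14 of 16 genes (median 1.32) and lymphoid markers for 19 of 20 (median 0.25), while neutrophil markers were lower for 5 of 6 (median -1.05) and fibroblast markers for 9 of 10 (median -0.31). The part of these markers was not tested.

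MC against DC compared the single genotypes. G2/M genes were at a higher mean in MC for 21 of 23 genes, with a median of 0.30, and S phase genes divided 7 to 7, with a median of 0.02 that changed sign in 7 of 31 alternatives, quantile scaling among them. All genes tested had a median of 0, and 50% of them were positive. The G2/M median lay between 0.16, without DC library 3, and 0.45 over the alternatives. The smallest p belonged to Ccnd2 (0.33 ± 0.17, SE, limma adjusted p = 0.414), Cenpe (0.55 ± 0.29, limma adjusted p = 0.422) and Birc5 (0.59 ± 0.31, limma adjusted p = 0.424). Lymphoid markers were lower in MC for 13 of 20 genes (median -0.60) and germinal centre markers for 5 of 9 (median -0.14), while acinar markers were higher for 10 of 13 (median 0.27). Duct markers were higher in MC for 9 of 10 genes (median 0.39, mean log2 level 8.69 to 9.02 in MC and 8.14 to 8.36 in DC) and islet endocrine markers for 14 of 16 (median 0.94), while fibroblast markers were lower for 9 of 10 (median -0.34) and neutrophil markers for 5 of 6 (median -0.21). Their part was not tested.

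**Figure D4:**
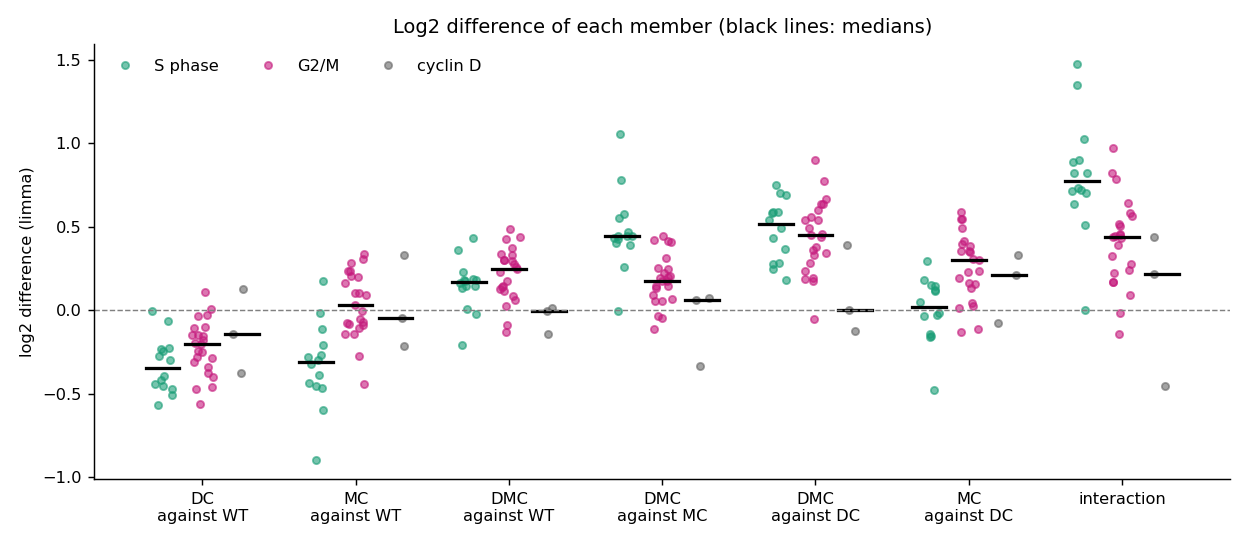
Log2 difference of each gene from limma (vertical axis) in the 6 comparisons between genotypes and the interaction (horizontal axis). Each point is 1 gene, coloured by group and spread sideways only for legibility, and black lines are medians; S phase genes lie above 0 in 14 of 14 in DMC against DC and 13 of 14 in DMC against MC, and below 0 in 14 of 14 in DC against WT.

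The interaction asks whether the effect of both floxed genes together differs, on the log2 scale, from the sum of the differences of DC and MC from WT. Only the label of WT names no Cre, so the interaction of the alleles and an effect of the transgene cannot be told apart. The interaction was positive for 14 of 14 S phase genes, with a median of 0.77, and for 21 of 23 G2/M genes, with a median of 0.44, against 0.016 over all genes tested. Limma called 0 of 40 genes, as it called 0% of all genes tested, and edgeR and DESeq2 called 0 of 40. Of all 14220 genes, edgeR called 0 and DESeq2 called 43. At an unadjusted p under 0.05 stood 11 of the 40 genes, 10 of them of S phase, against 8.13% of all genes tested. The counts were 12 with edgeR and 12 with DESeq2, for which the share of all genes was not computed. These genes vary together among the mice and are not independent. Mcm5 (1.35 ± 0.40, SE, limma adjusted p = 0.398), Mcm6 (1.47 ± 0.45, limma adjusted p = 0.42) and Mcm7 (0.73 ± 0.24, limma adjusted p = 0.483) had the smallest p. The interaction was also positive for 20 of 20 lymphoid markers (median 2.15) and 8 of 9 germinal centre markers (median 1.52, 6 at an unadjusted p under 0.05), and negative for 6 of 6 neutrophil markers (median -1.41) and 10 of 10 fibroblast markers (median -0.61), and their part was not tested. Without WT libraries 2 and 3 the S phase median was 0.51 and the G2/M median 0.03, with 0 of 40 genes called.

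Lymphoid-rich libraries were not uniformly the libraries with high cell cycle transcripts. WT libraries 2 and 3, the richest, were both above WT libraries 1 and 4 in 31 of 40 genes, 11 of 14 of S phase and 19 of 23 of G2/M, against 25.8% of all genes tested. Acinar levels were lower in WT libraries 2 and 3 than in 1 and 4, and the part of lymphoid or acinar content was not tested. The next richest, DMC library 2 with a lymphoid level of 7.31, DC library 3 with 6.74 and MC library 3 with 6.54, stood at 7.23, 6.82 and 6.91 for G2/M genes, and DC library 3 and MC library 3 were the 2 lowest of all 16. DMC library 4 had the highest S phase level with a lymphoid level of 3.80. None of the 20 lymphoid markers was at 0 in any library.

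**Figure D5:**
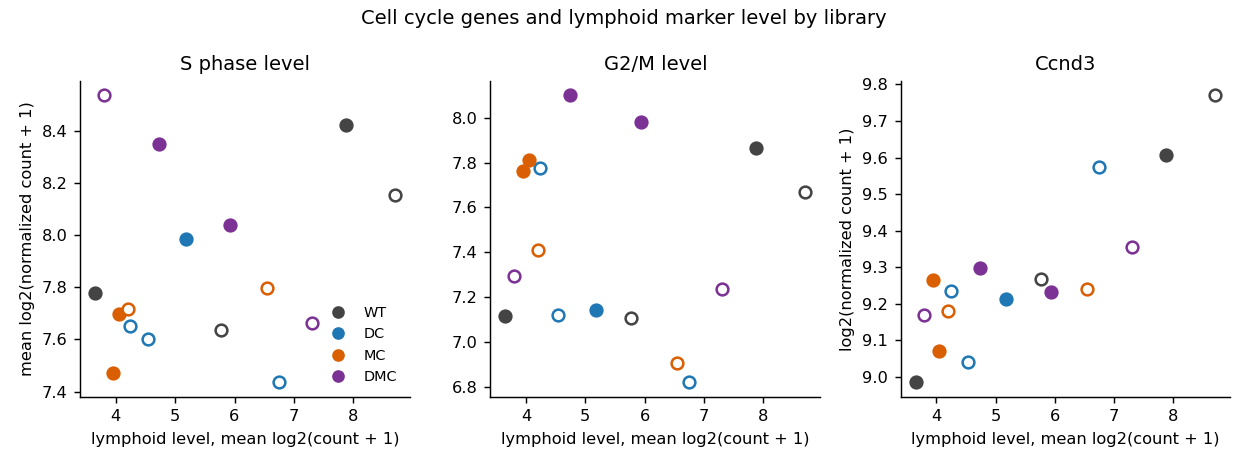
Mean log2 level of the S phase and G2/M genes and log2(normalized count + 1) of Ccnd3 (vertical axes) against the mean log2 level of 20 B, T and NK cell markers (horizontal axes). Each point is 1 of 16 libraries, coloured by genotype group and filled where Y-linked expression is high; the WT libraries at 7.87 and 8.71 on the horizontal axis have the 2 highest Ccnd3 values, and the DC library at 6.74 is lowest for G2/M genes.

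In a limma fit with genotype and the lymphoid level, the slope is the log2 change of a gene per log2 unit of lymphoid level. Ccnd3, a D-type cyclin that lymphocytes use, rose with the lymphoid level, with a slope of 0.11 ± 0.03 (SE, limma adjusted p = 0.0129), the 1 of 40 genes called, against 8.09% of all genes tested. The call was lost with the replicate number as a block (0.10, limma adjusted p = 0.122). It was also lost without WT library 1 (0.09, limma adjusted p = 0.136), without WT library 3 (0.10, limma adjusted p = 0.0886) and without WT libraries 2 and 3 (0.08, limma adjusted p = 0.394), and the adjusted p ranged from 0.000874 to 0.394 over 31 alternatives. The next largest slopes belonged to Mcm3 (0.09), Aurkb (0.07), Mcm4 (0.07), Mcm6 (0.06), Top2a (0.04), Pcna (0.04) and Bub1b (0.03). The smallest belonged to Ccnb1 (-0.12), Cdc20 (-0.12, limma adjusted p = 0.361), Tyms (-0.11, limma adjusted p = 0.133) and Cdc6 (-0.10). Tyms was called without WT library 1 (-0.17, limma adjusted p = 0.0384). Slopes were positive for 20 of 40 genes, and 2 of 40 (Ccnd3 and Tyms) had an unadjusted p under 0.05, against 22.9% of all genes tested.

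Without WT libraries 2 and 3 the slopes were negative for 14 of 14 S phase genes (median -0.08) and 23 of 23 G2/M genes (median -0.16), against a median of 0 over all genes tested. Limma then called 0 of 40 genes, against 1.93% of all genes tested, and 13 of 40 had an unadjusted p under 0.05, against 11.7% of all genes tested. Tyms was at -0.18 ± 0.05 (SE, limma adjusted p = 0.111) and Cdc20 at -0.26 ± 0.08 (limma adjusted p = 0.181).

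Y-linked expression divided the G2/M levels of 2 groups but not of the other 2. The pair with high Ddx3y was above the pair with low Ddx3y in 19 of 23 G2/M genes in MC, against 26.8% of all genes tested, and in 21 of 23 in DMC, against 15.5%. In WT the pair with high Ddx3y was above the other in 2 of 23, against 12.4%, and the only such DC library was above the others in 1 of 23, against 34.4%. In a limma fit with genotype and an indicator of high Y-linked expression, the difference was positive for 23 of 23 G2/M genes (median 0.37) and 11 of 14 S phase genes (median 0.12), against a median of -0.001 over all genes tested. Limma called 0 of 40 genes, against 0.0703% of all genes tested. EdgeR and DESeq2 called 0 of 40 as well, with 9 and 22 of all 14220 genes called. The 11 genes at an unadjusted p under 0.05 were all G2/M genes, against 3.91% of all genes tested. The counts were 7 with edgeR and 11 with DESeq2, for which the share of all genes was not computed. As G2/M genes move together within a library, these are not independent results. Cdc20 had the smallest p (0.60 ± 0.17, SE, limma adjusted p = 0.84), and Mki67 stood at 0.45 ± 0.18 (limma adjusted p = 0.995). In the same fit lymphoid markers were lower in the libraries with high Y-linked expression for 20 of 20 genes (median -0.83) and islet endocrine markers for 14 of 16 (median -0.29), and acinar markers were higher for 12 of 13 (median 0.14). Their part was not tested. High Y-linked libraries were present in every group, 2 of 4 in WT, MC and DMC and 1 of 4 in DC.

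Other genes of the pathway were read from 4 lists. None of their tested genes was called in any of the 6 comparisons. The lists comprised 24 other replication genes, 38 other mitosis genes, 19 genes of the CDK, Rb and E2F machinery and 7 CDK inhibitors, of which Cdkn2a was too low to be tested. In DMC against DC, other replication genes were at a higher mean in DMC for 23 of 24 (median 0.43) and other mitosis genes for 38 of 38 (median 0.54), whereas the CDK, Rb and E2F genes divided 10 to 9 (median 0.09). In DMC against MC the replication genes were higher for 24 of 24 (median 0.36) and the mitosis genes for 34 of 38 (median 0.18). Fen1, a nuclease that processes Okazaki fragments, had 345, 496, 371 and 302 normalized counts in WT, 269, 295, 297 and 312 in DC, 339, 337, 289 and 260 in MC, and 346, 272, 762 and 552 in DMC. Only DMC libraries 3 and 4 exceeded every other library for Fen1.

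Hjurp, the chaperone that deposits the centromeric histone, had the highest mean count, not corrected for length, of the other mitosis genes and the smallest p among the pathway genes in DMC against MC. It had 1466, 1505, 530 and 474 normalized counts in WT, 930, 781, 1260 and 770 in DC, 767, 535, 458 and 455 in MC, and 1652, 1431, 1919 and 1780 in DMC. Every DMC library was above every MC library, as in 2.14% of all genes tested, and WT libraries 1 and 2 reached the DMC range. Hjurp did not follow the G2/M genes among libraries: it was at 1260 in DC library 3, the lowest for their level at 6.82, and at 1466 in WT library 1, at 7.12. The log2 difference between DMC and MC was 1.64 ± 0.33 (SE, limma adjusted p = 0.11). Hmmr, a spindle protein with the second highest mean count of that list, again not corrected for length, ranged from 98.0 to 427 with overlapping groups.

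CDK inhibitors hold cells back from S phase. Cdkn1b, the p27 inhibitor, had 562, 509, 664 and 669 normalized counts in WT, 529, 641, 528 and 586 in DC, 608, 514, 627 and 626 in MC, and 433, 556, 575 and 647 in DMC. Cdkn2c, an inhibitor of Cdk4 and Cdk6 that menin is known to sustain in islet cells, had 127, 129, 122 and 163 in WT, 189, 139, 136 and 159 in DC, 101, 151, 100 and 85.6 in MC, and 153, 101, 106 and 124 in DMC. The groups overlapped for both inhibitors, and the largest difference of Cdkn2c was MC against DC (-0.53, limma adjusted p = 0.208). Cdkn1c, the p57 inhibitor, was chosen after its values were seen: it had 154, 91.3, 155 and 133 in WT and 335, 217, 170 and 245 in DC. Every DC library was above every WT library, as in 529 of all 14220 genes tested, and Cdkn1c did not pass the test (0.84, limma adjusted p = 0.217). Cdk4 was 930 to 1287 over the 16 libraries and Rbl2, a retinoblastoma relative that acts in resting cells, 656 to 864.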

How the data were processed

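STAR 2.6.0b, GRCm38 and DESeq2 are the aligner, build and normalizing tool named in the submitters' processing notes; no source used here gives a counter, an annotation release or a DESeq2 version. Each deposited value is a signal per gene: the authors divided read counts by a size factor for each library. Rescaling by the smallest step turned 100% of values into whole reads within a tolerance of 0.01. Libraries were strand-specific, per the labels' protocols.

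Values were taken as log2(normalized count + 1). Limma 3.58.1, with trend and without the robust option, ran under R 4.3.3 on 14220 genes in all 16 libraries at once, with a coefficient per genotype, Benjamini-Hochberg adjustment over all genes tested and a threshold of 0.05. The slope used the mean log2 of 20 lymphoid markers beside genotype. Fits with edgeR 4.0.16 and DESeq2 1.42.0 used the recovered reads.

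The members, gene lists and tests were chosen with earlier results of these data known. Named with values were Mki67, Top2a, Cdk1, Pcna, Mcm2 and the D-type cyclins, every called member or the 3 with the smallest p in a comparison, the 8 largest and 4 smallest slopes, the 2 members of each phase group with the highest mean count, Cdkn1b, Cdkn2c and up to 2 genes of a pathway list by the same measure, not corrected for length. Other genes were named to account for the whole set. The indicator of high Y-linked expression was chosen after seeing the data. Alternatives covered the pseudocount, filter, scaling, robust and weighted fits, covariates, the groups fitted, a block on the replicate number and leaving out each library. Gene lengths came from GENCODE release M21 and promoters from RefSeq.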

Additional observations from a re-analysis of the deposited data

Results flagged for a closer look

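In a group of 4 libraries, 1 value stood far from the other 3, with a gap above the 95% critical value of Dixon's test, in 6 of 172 groups tested, and chance alone flags about 1 in 20 groups. Of the S phase genes, Pcna was low in MC library 2 at 285.7 normalized counts, against 418.4 to 443.9 in the other MC libraries. Mcm5 was high in DC library 1 at 380.7, against 215.7 to 227.8, and Mcm6 was high in the same library at 843.5, against 380.8 to 431.8. Tyms was low in DC library 3 at 160.7, against 235.6 to 254.6. Of the G2/M genes, Birc5 was high in DC library 4 at 159.6, against 80.18 to 87.74, and Ube2c was high in the same library at 167.3, against 78.35 to 82.04.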

How the results depend on the processing

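Over 31 alternatives, 0 members were called in DC against WT, MC against WT, DMC against WT, DMC against MC and MC against DC, and over 30 the same held for the interaction. In DMC against DC, library quality weights gave 8 called members, with 1655 genes called in all against 76. For the slope on the lymphoid level, the count of called members went from 1 to 0 with a replicate block (Ccnd3 0.10, limma adjusted p = 0.122) and to 0 with WT libraries 2 and 3 left out. Leaving out 1 library at a time gave 0 to 1. The replicate block changed no other count of called members, and the replicate numbers shared only a number: deviations of same-numbered libraries correlated between -0.371 and 0.384, and 1 of 16 libraries correlated best with its own number. DESeq2 called more genes in all than limma in the 6 comparisons, 281 against 3 in DC against WT, 391 against 111 in MC against WT, 331 against 112 in DMC against WT, 56 against 1 in DMC against MC, 345 against 76 in DMC against DC and 500 against 195 in MC against DC, and 43 against 0 in the interaction. The cause was not tested. Median differences of the cyclin D genes lay within 0.15 of 0 in the 3 comparisons with WT and changed sign in 2 of 31 alternatives in DC against WT, 4 in MC against WT and 4 in DMC against WT. Some alternatives, such as leaving out a library of a group not compared, cannot move a median difference between genotypes. With the lymphoid level as a covariate, the S phase median of MC against DC changed sign. The cyclin D medians of DC against WT, DMC against MC and the interaction did so too. The other medians of the phase groups, between genotypes and in the interaction, kept their sign in that fit. The lowest member had 25 reads in a library, where counting error was 20% of a value. For members with few reads, counting error adds to the spread among 4 mice, and the part of each was not tested.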
